A study of Mus musculus with 6 samples.

Results

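The ligands of the EGF family and the proteases that release them were examined in epidermal sheets of mouse embryos with a conditional knockout of Rptor. The rule named 10 genes: the ligands Nrg1, Epgn, Btc, Hbegf, Tgfa, Ereg, Areg and Nrg4, and the sheddases Adam10 and Adam17. Of these, 9 were read on the arrays through a probe set whose annotation names that gene alone, 7 ligands and 2 sheddases, out of 30142 genes in all. Areg was not analysed here, because none of the probe sets used carried its symbol. Where a gene had several such probe sets, which was so for Nrg1 and Ereg, the brightest by its mean over the 6 arrays was taken.

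The 6 arrays compare 3 Rptor cKO sheets with 3 wild-type sheets from littermate embryos late in gestation (E18.5), and the series' design text counts them as 3 biological replicates a group. Rptor codes for Raptor, the scaffold of mTORC1 through which this kinase complex recognises its targets. The epidermis was peeled from the dermis with ammonium thiocyanate and extracted whole, so every value is a mean over the cells of a sheet. Neither the driver of the deletion nor the exons it removes are stated in the labels. All values are deposited log2 values, and all changes are Rptor cKO minus wild type on that scale.

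EGF family ligands are made as membrane proteins that carry an EGF domain outside the cell. A sheddase cuts the domain free, and the released ligand binds receptors of the ERBB family, which pair up and switch on ERK and AKT signalling. In the epidermis these ligands are known for acting between neighbouring keratinocytes in growth, migration and wound closure. Which receptor a ligand binds differs by member: epigen and TGF-alpha act through EGFR, betacellulin, HB-EGF and epiregulin through EGFR and ERBB4, neuregulin 1 through ERBB3 and ERBB4, and neuregulin 4 through ERBB4.

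The deposited values ran from 1.34 to 14.04, and array medians from 4.08 to 4.22. The medians of the 5222 negative control probe sets lay between 3.81 and 4.11 on the arrays and served as a guide to dim signal. Their 95th percentiles lay between 7.46 and 8.07, so a value above the median is not by that alone clear of background. All values of Nrg1, Epgn, Hbegf, Tgfa, Ereg, Nrg4 and Adam17 lay below the 95th percentile of their array. Rptor itself averaged 6.69 ± 0.14 in Rptor cKO sheets and 7.15 ± 0.27 in wild-type sheets (SD, n = 3 each), a change of -0.46 (SE 0.15) that missed the threshold. The sexes, read from Xist and genes of the Y chromosome, were 2 females (arrays 1 and 3) and 1 male (array 2) among the Rptor cKO embryos, against 3 males among the wild type. Fits with the male arrays alone are therefore given beside each changed ligand and sheddase, and they compare Rptor cKO array 2 with the wild type, assuming that the lone sample varies like the other group.

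Of the 9 measured genes, 6 changed. Nrg1, Epgn and Hbegf rose, Btc, Nrg4 and Adam17 fell, and Tgfa, Ereg and Adam10 did not pass the test, which was limma with Benjamini-Hochberg adjustment over all 30142 genes at a threshold of 0.05. Over all genes tested, 9.58% changed, 3.63% as higher and 5.95% as lower in Rptor cKO. The median size of change, regardless of sign, was 0.62 among the 9 genes and 0.13 among all genes, and the signed medians were 0.12 and 0.05. The same 6 genes were the ones whose 3 Rptor cKO arrays did not overlap the 3 wild-type arrays, a separation seen in 29.0% of all genes tested (16.5% with Rptor cKO higher and 12.5% with Rptor cKO lower).

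**Figure D1:**
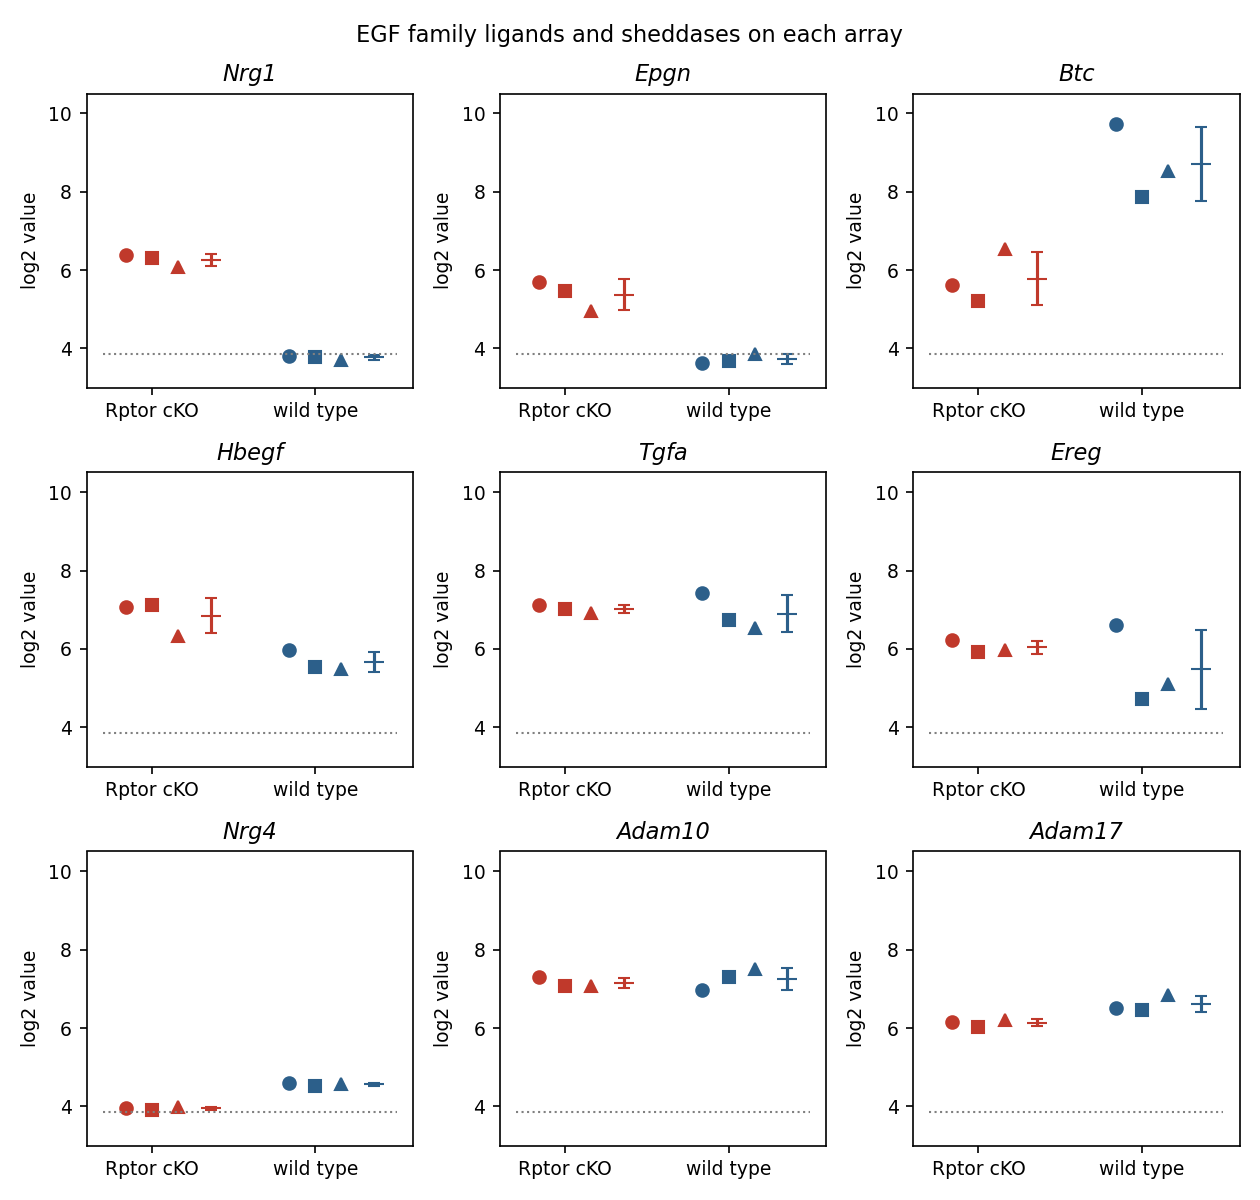
Log2 value (vertical axis) of each of the 9 genes on the 3 Rptor cKO arrays (left) and the 3 wild-type arrays (right). Circles, squares and triangles stand for Rptor cKO arrays 1, 2 and 3 and for wild-type arrays 4, 5 and 6, bars show mean ± SD (n = 3), and the dotted line is the middle of the negative control medians. Nrg1 lay near 6 in Rptor cKO and at the dotted line in wild type, Btc stood lower in Rptor cKO on every array, and the groups overlapped for Tgfa, Ereg and Adam10.

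The neuregulins among the members, Nrg1 and Nrg4, moved in opposite directions. Nrg1 (chromosome 8, 31807452 to 32891609, GRCm38, the assembly also called mm10) encodes a neuregulin that activates ERBB3. It read 6.37, 6.30 and 6.08 on Rptor cKO arrays 1 to 3, against 3.81, 3.79 and 3.70 on wild-type arrays 4 to 6. The groups were far apart, and all 3 wild-type values lay under the negative control median of their own array, so the wild-type level is only bounded. With values raised to that median Nrg1 was at least 5.3-fold higher in Rptor cKO (measured change 2.49, 95% interval 2.25 to 2.72, limma adjusted p = 9.14e-05). By p it ranked 2 among 30142 genes, and by size it was number 4 among the rises. With the male arrays alone the change was 2.54 (limma adjusted p = 0.00121). A second probe set annotated to Nrg1 read under that median on each of the 6 arrays, at 3.05, 2.86 and 2.93 in Rptor cKO and 2.39, 2.61 and 2.66 in wild type. Its change was 0.39 (SE 0.11, limma adjusted p = 0.0913 over all probe sets), and averaging both probe sets gave 1.44 for the gene.

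Fibroblasts, which the peeling of the dermis should remove, can also make neuregulin 1, and their markers were higher in Rptor cKO. Of 7 measured fibroblast markers, 5 rose and none fell, among them Dcn (0.94, SE 0.11) and Lum, proteoglycans of connective tissue. Wild-type Lum values lay below the median of the negative controls on 2 arrays, and Lum was at least 2.5-fold higher in Rptor cKO (measured change 1.43, SE 0.28). The number of rises was 1 without Rptor cKO array 2 or wild-type array 6, 2 without Rptor cKO array 1 or wild-type array 5, 4 without wild-type array 4 and 7 without Rptor cKO array 3. Only 2 passed with array medians subtracted, with quantile normalization, with array quality weights and with all probe sets fitted together. The mean log2 value over the 7 markers was 6.49, 6.61 and 5.89 on Rptor cKO arrays 1 to 3, against 5.59, 5.41 and 5.31 on wild-type arrays 4 to 6. On Rptor cKO array 3 this mean was 0.30 above the highest wild-type array, and Nrg1 was 2.27 above its highest wild-type value. The markers differed on that array: Dcn read 8.62, 8.93 and 8.81 on Rptor cKO arrays 1 to 3, against 7.85, 7.77 and 7.92 in wild type, so it stood 0.89 above the highest wild-type value on array 3. The part of these cells in the rise of Nrg1 was not tested. In whole sheets a change in the number of cells of a type and a change of RNA per cell cannot be told apart.

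Nrg4 (chromosome 9, 55220222 to 55283654), a neuregulin that signals through ERBB4, was dim on all arrays. It read 3.95, 3.92 and 3.98 in Rptor cKO, against 4.60, 4.52 and 4.58 in wild type. The 3 replicates spanned 0.07 in Rptor cKO and 0.08 in wild type, and only the value of Rptor cKO array 1 was under its negative control median. Nrg4 fell by 0.62 (SE 0.08, 95% interval -0.81 to -0.42, limma adjusted p = 0.00483), a 1.53-fold difference, or at least 1.48-fold with array 1 raised to that median. The call was lost with the male arrays alone, where the change was -0.65 (limma adjusted p = 0.0803).

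Among the ligands of EGFR alone, Epgn moved and Tgfa did not pass the test. Epgn (chromosome 5, 91027517 to 91035212), which encodes epigen, read 5.70, 5.47 and 4.95 on Rptor cKO arrays 1 to 3, against 3.64, 3.68 and 3.87 on wild-type arrays 4 to 6. The groups did not overlap, and wild-type arrays 4 and 5 were under their negative control median. Epgn was at least 2.86-fold higher in Rptor cKO (measured change 1.64, 95% interval 1.22 to 2.05, limma adjusted p = 0.00238), and with the male arrays alone the change was 1.73 (limma adjusted p = 0.00428). Tgfa (chromosome 6, 86195038 to 86275744) encodes TGF-alpha, a ligand known for its role in hair and eyelid development. It read 7.12, 7.01 and 6.92 in Rptor cKO, against 7.42, 6.73 and 6.54 in wild type. Wild-type array 4 lay above every Rptor cKO array and arrays 5 and 6 below them, and the 95% interval of the change, -0.35 to 0.60, leaves room for a shift in either direction (0.12, limma adjusted p = 0.782).

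The ligands shared by EGFR and ERBB4 went different ways. Hbegf, the heparin-binding EGF-like growth factor of migrating keratinocytes, read 7.08, 7.13 and 6.34 on Rptor cKO arrays 1 to 3, against 5.97, 5.55 and 5.50 on wild-type arrays 4 to 6. Rptor cKO array 3 stood closest to wild type but still above it. Hbegf rose 2.26-fold (1.18, SE 0.22, 95% interval 0.67 to 1.68, limma adjusted p = 0.0148), and by 1.46 with the male arrays alone (limma adjusted p = 0.0207). It missed the threshold without Rptor cKO array 2 (1.04, limma adjusted p = 0.0708) and without wild-type array 6 (1.09, limma adjusted p = 0.0595).

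Btc (chromosome 5, 91357261 to 91402994), which encodes betacellulin, read 5.61, 5.20 and 6.54 on Rptor cKO arrays 1 to 3, against 9.71, 7.85 and 8.52 on wild-type arrays 4 to 6. Its replicates were widely spread, with an SD of 0.68 in Rptor cKO and 0.94 in wild type, and the lowest wild-type array still stood 1.31 above the highest Rptor cKO array. Btc fell 7.52-fold (-2.91, SE 0.47, 95% interval -4.00 to -1.82, limma adjusted p = 0.00914), and the change was -3.49 with the male arrays alone (limma adjusted p = 0.034). Markers of the outer epidermal layers fell on the same arrays. All 6 granular layer markers were lower, among them Tgm3, a crosslinking transglutaminase (-2.91, SE 0.26), and Casp14, a protease of filaggrin processing (-3.87, SE 0.51), as were all 5 spinous layer markers. Without Rptor cKO array 2, 3 granular and 3 spinous markers passed the test, and without wild-type array 6, 4 granular and 3 spinous markers did. The mean of the granular markers was 7.68, 7.62 and 8.96 on Rptor cKO arrays 1 to 3, against 11.13, 10.20 and 10.53 on wild-type arrays 4 to 6. Rptor cKO array 3 was the highest and wild-type array 5 the lowest of their groups in both Btc and these markers, and whether the share of outer-layer cells accounts for Btc was not tested.

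Ereg (chromosome 5, 91074617 to 91093649), which encodes epiregulin, read 6.23, 5.92 and 5.98 in Rptor cKO, against 6.61, 4.72 and 5.12 in wild type. Wild-type array 4 lay above all Rptor cKO arrays, and wild-type arrays 5 and 6 lay below them. The change was 0.56 (SE 0.41, 95% interval -0.38 to 1.51, limma adjusted p = 0.472). The value depended on single wild-type arrays: it was 1.13 and passed the test without array 4 (SE 0.15, limma adjusted p = 0.00559), 0.18 without array 5 (limma adjusted p = 0.824) and 0.38 without array 6 (limma adjusted p = 0.736). Wild-type array 4 was also the highest of its group in Nrg1, Nrg4, Tgfa, Btc and Hbegf, and in the granular marker mean. A second probe set annotated to Ereg read 4.38, 4.39 and 4.17 in Rptor cKO and 4.16, 3.90 and 3.78 in wild type, a change of 0.36 (SE 0.13, limma adjusted p = 0.165 over all probe sets).

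Of the sheddases, Adam17 passed the test and Adam10 did not. Adam17 (chromosome 12, 21323509 to 21373632), the main sheddase of TGF-alpha, HB-EGF, epigen and epiregulin, read 6.15, 6.02 and 6.21 in Rptor cKO, against 6.51, 6.46 and 6.85 in wild type. It fell 1.4-fold (-0.48, SE 0.12, 95% interval -0.76 to -0.20, limma adjusted p = 0.0468), close to the threshold, and missed it in 11 of 15 alternative analyses, among them the male arrays alone (-0.59, limma adjusted p = 0.201). Adam10 (chromosome 9, 70678944 to 70780229), the sheddase that releases betacellulin, read 7.29, 7.07 and 7.07 in Rptor cKO, against 6.97, 7.29 and 7.50 in wild type. The groups overlapped, and the change was -0.11 (SE 0.14, 95% interval -0.44 to 0.22, limma adjusted p = 0.701). Protein, shedding and ligand release were not measured on these arrays.

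For 6 of 6 changed genes, Rptor cKO array 3 was the array nearest to the wild-type mean, as it was for 70.2% of all 2887 changed genes. The order of the other Rptor cKO arrays was not shared. Array 1 lay farthest from wild type for Nrg1 and Epgn, and array 2 for Hbegf, Btc, Nrg4 and Adam17. For Nrg4 the Rptor cKO arrays spanned only 0.07. Array 3 also held the highest spinous and granular marker means and the lowest fibroblast marker mean of its group, as the plot of centred values shows.

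**Figure D2:**
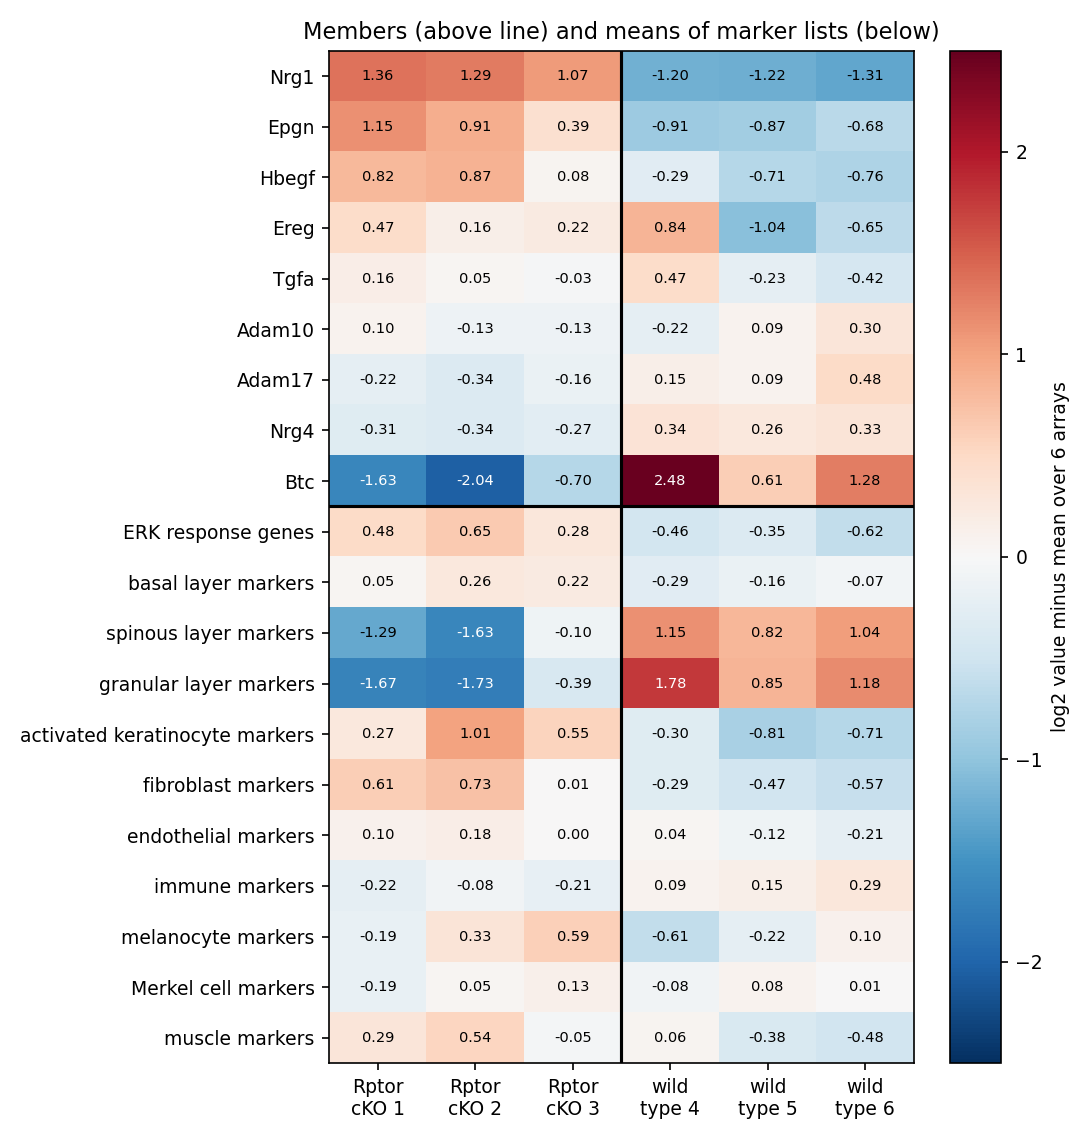
Log2 value minus the mean over the 6 arrays for each of the 9 genes (above the line) and for the mean of each marker list (below the line), with Rptor cKO arrays left and wild-type arrays right. Red is above and blue below the mean, with the number in each cell. Nrg1 is 1.07 to 1.36 above its mean on the Rptor cKO arrays, Btc runs from -2.04 to -0.70 there, and Rptor cKO array 3 is the palest of its group for Epgn, Hbegf, Btc and the spinous and granular markers.

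Genes with the most similar profiles were found by the mean absolute gap between mean-centred log2 values over the 6 arrays, which is dominated by the difference between the groups. For Nrg1 they were Dusp6, an ERK phosphatase (gap 0.20), Wif1, a secreted WNT inhibitor (0.235), and Lgals1, a galectin (0.239). For Epgn they included the glucose transporter gene Slc2a3 (0.14) and the cell-surface protein gene Flrt2 (0.147). Hbegf lay closest to the immediate early gene Egr1 (0.107), the mitochondrial ND6 (0.117) and Ptgs2, the inducible prostaglandin synthase (0.13). Btc was nearest to Ggct, Ces2f and Aox4, enzymes of glutathione turnover, ester cleavage and aldehyde oxidation (0.146, 0.157 and 0.157). The small changes gave tighter matches: Mtus1, Rgs20 and Pi4ka for Nrg4 (0.024, 0.028 and 0.03) and Nfs1, Cops5 and Mfn1 for Adam17 (0.033, 0.034 and 0.034).

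In the annotation, Epgn, Ereg, Areg and Btc lie next to each other on chromosome 5, with no other protein-coding gene between them, over 375 kb from the start of Epgn to the end of Btc. Within this cluster Epgn rose and Btc fell, at opposite ends. Of the protein-coding neighbours on the Epgn side, the chemokine gene Cxcl1 rose (1.11, SE 0.24, limma adjusted p = 0.0253), and Mthfd2l, the immediate neighbour, changed by 0.34 (SE 0.10, limma adjusted p = 0.0764). On the Btc side the immediate neighbour Parm1 fell by 0.74 (SE 0.13, limma adjusted p = 0.0106), and Uso1, a vesicle tethering factor, fell by 0.65 (SE 0.14, limma adjusted p = 0.0217). Of the flanking genes plotted, 1 of 8 before Epgn and 2 of 6 after Btc changed, against 9.58% of all genes tested. Cxcl1 and Uso1 were named after their values were seen.

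**Figure D3:**
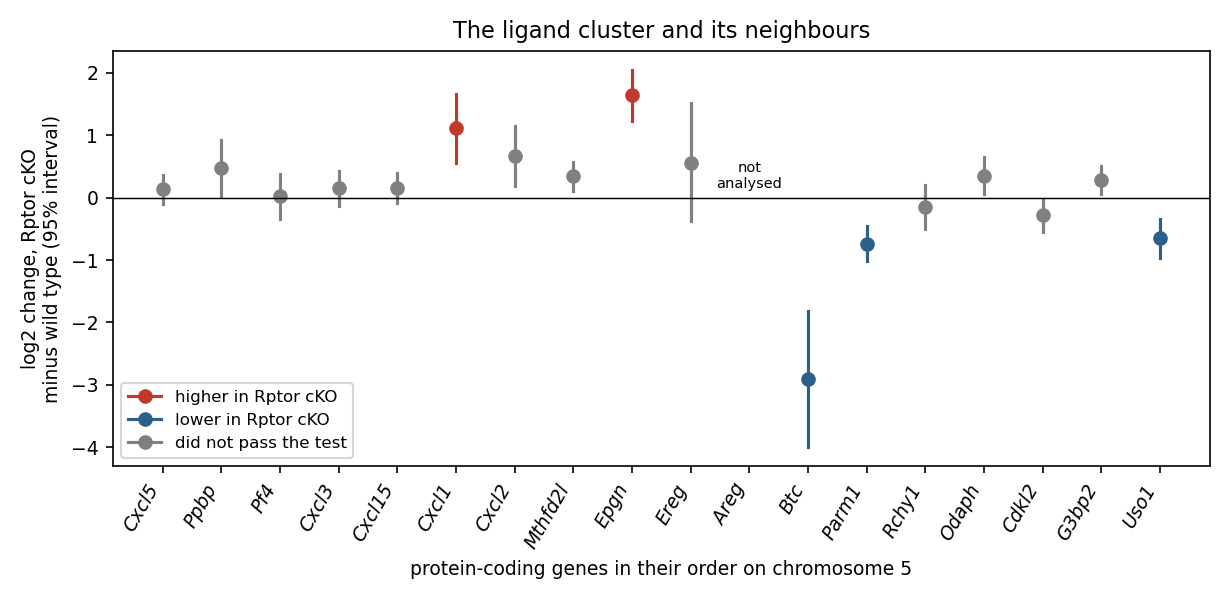
Log2 change (vertical axis, Rptor cKO minus wild type, with 95% intervals) of the ligand genes of chromosome 5 and of the protein-coding genes on either side, in their order along the chromosome and not to distance. Epgn at 1.64 and Btc at -2.91 stand at opposite ends of the ligand cluster, and Areg was not analysed here.

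The promoters of these oppositely moving neighbours are shown for comparison, together with that of Adam10, the only promoter among the 6 read here that holds the CACGTG core bound by MiT/TFE factors. RefSeq (GRCm38.p6) gave 300 bases, 250 before and 50 after the start, for 6 of the 9 genes: Epgn, Btc, Tgfa, Nrg4, Adam10 and Adam17. Each is written 5′ to 3′ along its gene, with capitals marking TATAAA or CGGAAG in Epgn on either strand and CACGTG in Adam10. The Epgn promoter is at chr5:91027267-91027566 (plus strand), the Btc promoter at chr5:91402945-91403244 (minus strand) and the Adam10 promoter at chr9:70678732-70679031 (plus strand).
Epgn: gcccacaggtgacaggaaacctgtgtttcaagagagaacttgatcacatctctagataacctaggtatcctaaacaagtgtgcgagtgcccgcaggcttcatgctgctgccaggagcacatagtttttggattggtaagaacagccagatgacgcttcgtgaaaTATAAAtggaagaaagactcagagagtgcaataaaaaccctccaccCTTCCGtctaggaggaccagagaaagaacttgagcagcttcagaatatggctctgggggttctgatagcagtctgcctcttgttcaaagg
Btc: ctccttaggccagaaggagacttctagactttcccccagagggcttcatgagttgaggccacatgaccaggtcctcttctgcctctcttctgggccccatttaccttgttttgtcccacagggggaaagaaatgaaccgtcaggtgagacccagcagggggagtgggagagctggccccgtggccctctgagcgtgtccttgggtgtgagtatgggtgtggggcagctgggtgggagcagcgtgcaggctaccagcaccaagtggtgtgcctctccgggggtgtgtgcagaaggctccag
Adam10: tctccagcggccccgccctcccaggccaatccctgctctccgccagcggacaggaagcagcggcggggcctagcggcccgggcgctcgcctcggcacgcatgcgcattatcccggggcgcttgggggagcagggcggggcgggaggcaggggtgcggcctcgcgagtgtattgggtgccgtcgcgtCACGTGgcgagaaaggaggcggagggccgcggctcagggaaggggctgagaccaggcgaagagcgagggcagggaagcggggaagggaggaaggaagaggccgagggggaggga

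Letters were searched on both strands of these windows. CACGTG was in 1 of 6 promoters (Adam10, beginning 64 bases before the start) and in 7.15% of the 32851 promoters of the table. TATAAA was in 1 of 6 (Epgn, beginning 86 bases before the start) and in 13.6% of all, and the ETS core CGGAAG was in 2 of 6 (Epgn and Adam17) and in 16.9% of all. The AP-1 letters TGANTCA (7.81% of all promoters), the FOXO letters GTAAACA (3.65%) and the TEAD letters GGAATG (14.7%) were in none of the 6. No capitals overlap between motifs. The GC content was 47.3% for Epgn, 60.3% for Btc, 51.0% for Nrg4, 70.7% for Tgfa, 70.0% for Adam17 and 73.3% for Adam10, against a median of 52.7% over all promoters.

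The other genes of the pathway were read from 5 lists with 37 measured genes. Of these lists, the ERK response genes held 6 rises and no fall. In all 37 genes, 7 rose and 3 fell (27.0%), where 3.63% of all genes tested rose and 5.95% fell. Without Rptor cKO array 2, 4 rose and 1 fell, and with the male arrays alone 5 rose and 1 fell. Among the receptors and their brakes, 1 of 6 changed: Erbb3, the receptor of neuregulin 1, averaged 7.71 ± 0.22 in Rptor cKO sheets and 8.65 ± 0.29 in wild-type sheets (SD, n = 3 each) and fell by 0.94 (SE 0.17). That call was lost without Rptor cKO array 2 (-0.95, limma adjusted p = 0.057) and with the male arrays alone (-0.91, limma adjusted p = 0.104). Erbb4, the receptor of Nrg4, averaged 3.69 ± 0.06 in Rptor cKO sheets and 3.67 ± 0.03 in wild-type sheets (SD, n = 3 each) and never exceeded the negative control median of its array. None of the 3 other ligands (Egf, Nrg2 and Nrg3) passed the test, with changes from -0.01 to 0.13, and none of 5 other sheddases (Adam8, Adam9, Adam15, Adam19 and Bace1) did.

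Among 13 partners and inhibitors of the sheddases, 1 rose and 2 fell, where 3.63% of all genes tested rose and 5.95% fell. Rhbdf1, an inactive rhomboid protein that carries ADAM17 toward the cell surface, averaged 7.82 ± 0.13 in Rptor cKO and 7.21 ± 0.11 in wild type and rose by 0.60 (SE 0.11). Its relative Rhbdf2 changed by -0.41 (SE 0.13) and missed the threshold. Rhbdl2, a rhomboid protease that can cleave EGF itself, averaged 5.00 ± 0.25 in Rptor cKO and 6.31 ± 0.25 in wild type and fell by 1.31 (SE 0.16). Tspan15, a tetraspanin that accompanies ADAM10, fell by 0.51 (SE 0.10). The rise of Rhbdf1 missed the threshold without Rptor cKO array 2 (0.53, limma adjusted p = 0.0569) and with the male arrays alone (0.75, limma adjusted p = 0.067). Tspan15 missed it with the male arrays alone (limma adjusted p = 0.131) and without any 1 of Rptor cKO arrays 1 and 2 and wild-type arrays 5 and 6 (limma adjusted p from 0.056 to 0.0911).

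Of 10 ERK response genes, 6 rose and none fell (4 rose without Rptor cKO array 2), where 3.63% of all genes rose and 5.95% fell. Their median change was 0.99. The ETS factors Etv4 and Etv5 rose by 1.63 (SE 0.15) and 1.34 (SE 0.13), and Dusp6 by 2.43 (SE 0.23). Dusp4 (change 0.04), Dusp5 (-0.10), Phlda1 (0.26) and Fosl1 (0.56) did not pass the test. The mean of the list was 7.24, 7.41 and 7.04 on Rptor cKO arrays 1 to 3, against 6.30, 6.41 and 6.14 on wild-type arrays 4 to 6. These RNA values do not say which ligand or receptor was active, and whether the ligands read here took part in these rises was not tested.

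**Figure D4:**
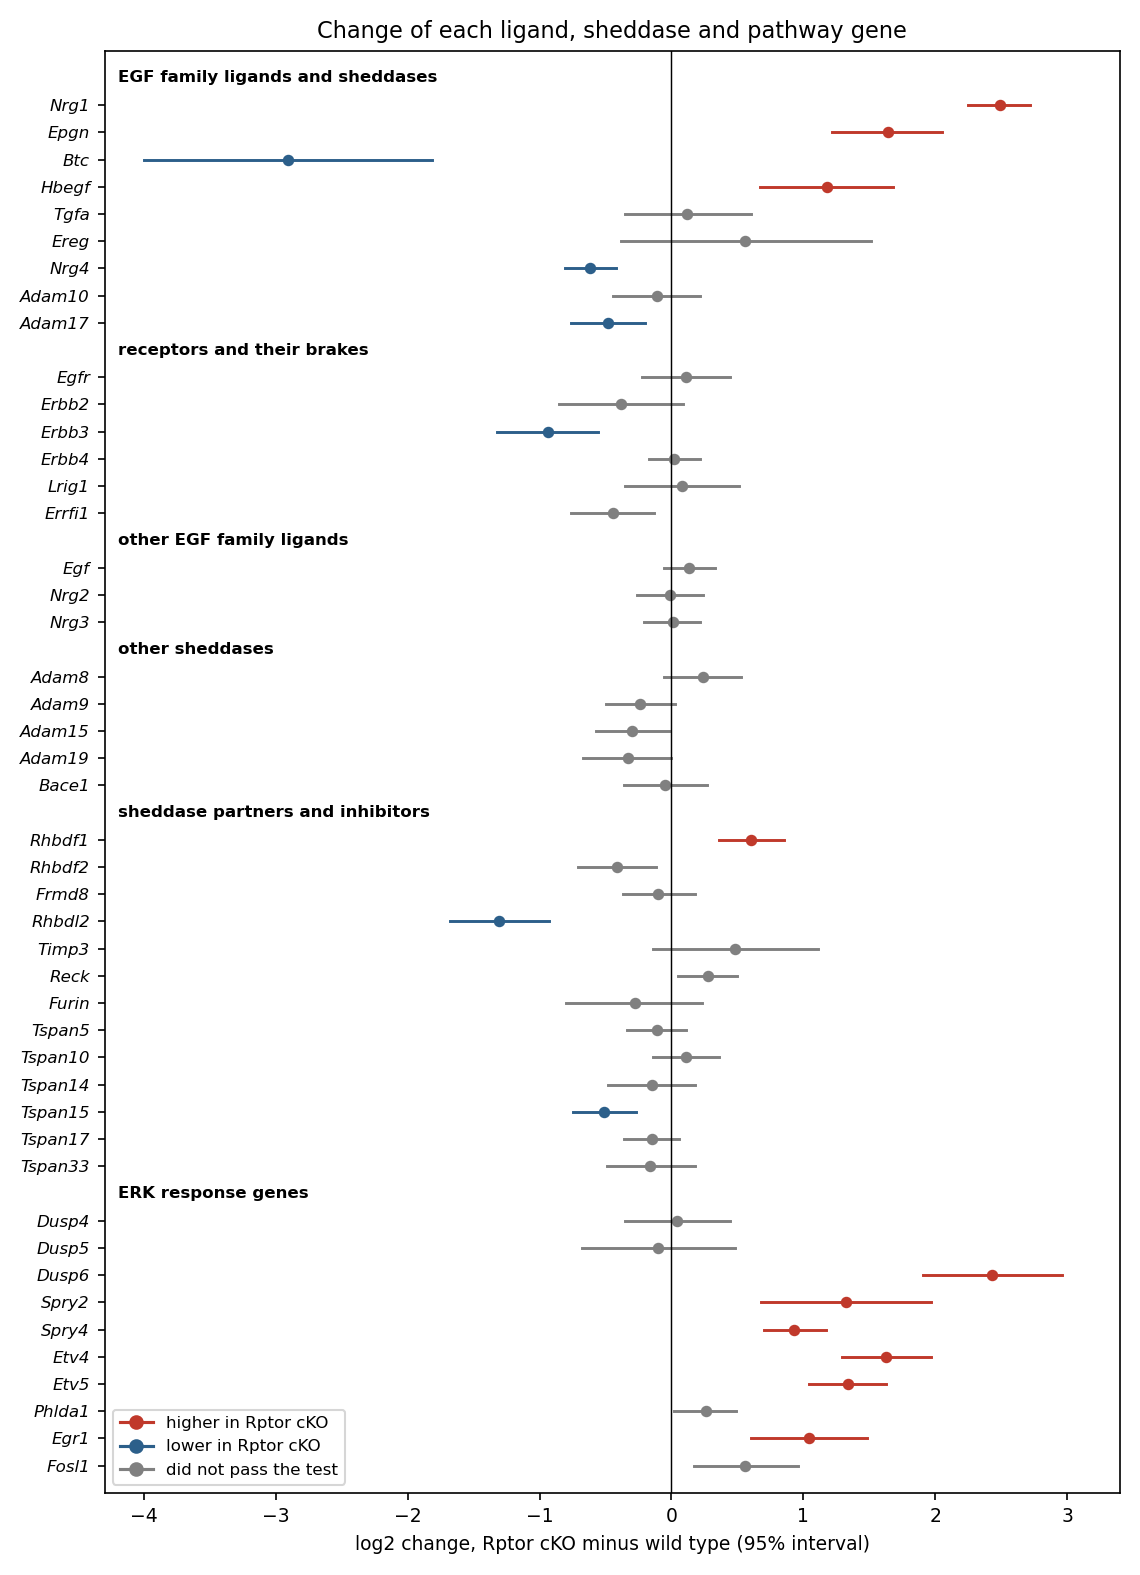
Log2 change (horizontal axis, Rptor cKO minus wild type) with 95% intervals for the 9 ligands and sheddases and for 37 other genes of the pathway by list. Red genes were higher and blue genes lower in Rptor cKO after adjustment over all genes, and grey genes did not pass. Nrg1 at 2.49 and Dusp6 at 2.43 lie farthest to the right, and Btc at -2.91 farthest to the left.

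Markers of other cells that a sheet can hold gave the following values. Of 6 endothelial markers 1 rose (Pecam1, 0.53), and of 5 immune markers 2 fell (Csf1r, -0.64, and Ptprc). Pecam1 was dim, at 4.41 to 4.53 in Rptor cKO and 3.84 to 4.12 in wild type. On 1 wild-type array it was under the negative control median. Ptprc was under the negative control median on all 3 Rptor cKO arrays and 1 wild-type array. With values raised to that median its change was -0.07. None of 5 melanocyte, 3 Schwann cell or 5 muscle markers passed the test. Among 5 Merkel cell markers Krt18 rose (0.43) and Atoh1 fell (-0.68). The calls of Pecam1, Csf1r, Ptprc, Krt18 and Atoh1 were each lost with the male arrays alone, with changes of the same sign. With 1 array left out, the call of Pecam1 was lost without Rptor cKO arrays 1 or 2 or wild-type array 6. That of Ptprc was lost without Rptor cKO array 2, and that of Krt18 in every such fit except the one without wild-type array 6. The muscle marker mean was 5.62 to 6.21 in Rptor cKO and 5.19 to 5.73 in wild type, and like the fibroblast mean it was highest on Rptor cKO arrays 1 and 2. Basal keratinocyte markers averaged 9.51 to 9.72 in Rptor cKO and 9.17 to 9.39 in wild type, with 1 of 5 higher (Itgb4, 0.98). Of 4 markers of activated keratinocytes, the keratins Krt16 and Krt17 rose by 2.25 (SE 0.29) and 0.77 (SE 0.18), and S100a8 and S100a9 did not pass the test. Krt17 missed the threshold in 9 of 15 alternatives, among them without Rptor cKO array 2 (0.69, limma adjusted p = 0.148), without wild-type array 5 or 6 and with array medians subtracted. With the male arrays alone both keratins missed it (change 2.11 for Krt16 and 0.91 for Krt17). The part of these markers in the changes of the ligands was not tested.

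**Figure D5:**
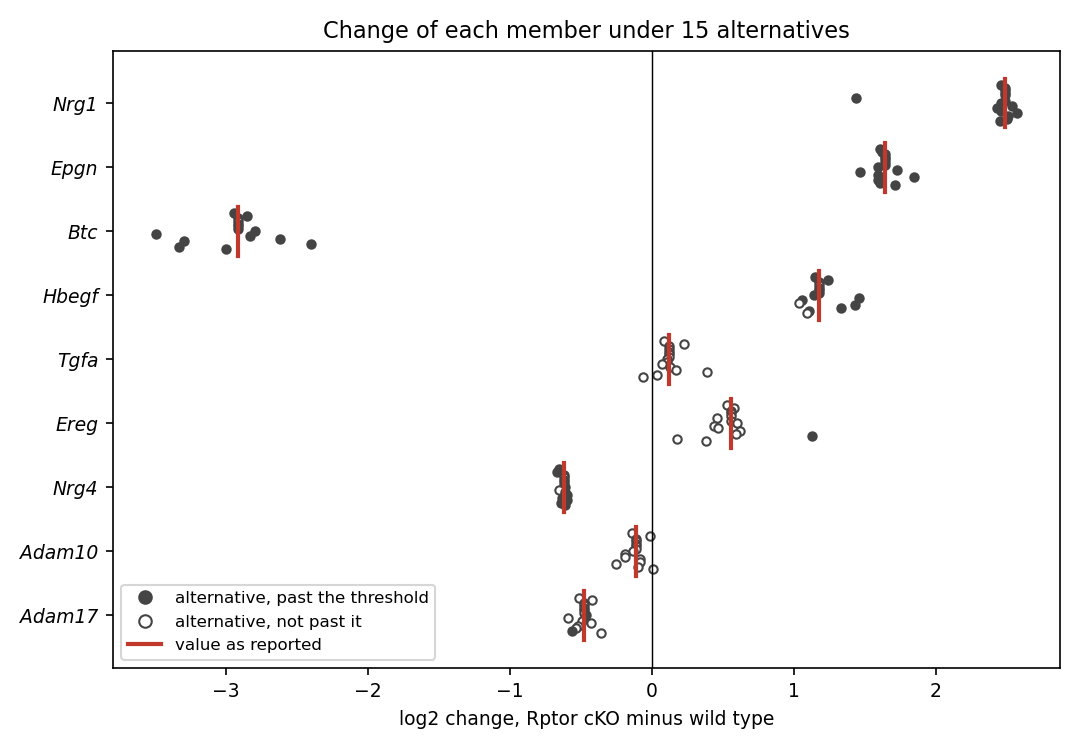
Log2 change (horizontal axis) of each of the 9 genes under 15 alternative analyses, filled where past the threshold and open where not, with the reported value as a red bar. All points of Nrg1 are filled and lie from 1.44 to 2.57, the points of Btc lie from -3.49 to -2.40, and most points of Adam17 are open.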

How the data were processed

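RNA of 3 Rptor cKO and 3 wild-type epidermal sheets was measured on expression arrays, labelled with the Ambion Expression WT kit, per the labels' protocols. The deposited values are log2 values per probe set, and RMA, Partek and mm10 are named in the submitters' processing notes, with no versions. RMA as usually run makes array distributions alike and shrinks differences between dim probe sets. The log2 scale was read from the values. Arrays limit precision by their number, 3 per group, and slide and scan date are not stated in the labels.

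Of 72688 probe sets, 6732 were controls. Symbols were updated by Entrez ID (22818 matched, 827 updated), and 30604 probe sets naming a single gene gave 30142 genes. Differences were fitted in limma 3.58.1 (R 4.3.3; lmFit, eBayes), with group as sole term, two-sided, and Benjamini-Hochberg adjustment over all genes (threshold 0.05, 4.3 prior degrees of freedom), and dim genes were kept. SE is moderated. For folds worded "at least", values under an array's negative control median were set to it. Such a fold is a bound only if that median is taken as the floor. A permutation test of a single gene with 3 against 3 could not go below p = 0.1.

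The members and lists were chosen with earlier results of these data known. All members are named, with up to 3 genes per direction of each list by p and the 3 nearest profiles of each changed member (1 of those of Epgn is not reported here); neighbours on chromosome 5 and the promoter motifs were chosen after the values were seen. On data simulated for this comparison with 30142 genes, 20.4% of changes of 0.5 and 78.4% of changes of 1 were recovered, and 6.08% of calls were false. Only a small part of the genes was given a change there, with noise drawn independently for each gene. That gave 756 calls over 5 draws, against 2887 in the real fit, so these shares need not hold for the real data. The alternatives were array scaling, a filter on dim genes, moderation, probe set choice, array weights, male arrays alone and leaving out each array.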

Additional observations from a re-analysis of the deposited data

How the results depend on the processing

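Over 15 alternatives all 9 genes kept their direction, except that without wild-type array 6 Tgfa was at -0.06 and Adam10 at 0.01. With any 1 array left out Tgfa ran from -0.06 to 0.39 and Adam10 from -0.25 to 0.01, and neither passed the threshold. Nrg1 passed the test in 15 of 15, from 1.44 with its probe sets averaged to 2.57. Epgn (1.47 to 1.85) and Btc (-3.49 to -2.40) passed in 14, Nrg4 (-0.67 to -0.60) in 13, Hbegf (1.04 to 1.46) in 12 and Adam17 (-0.59 to -0.36) in 4. Ereg (0.18 to 1.13) passed in 1, without wild-type array 4.

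The number of changed members was 6, and 4 to 6 with any 1 array left out. All genes changed numbered 2887, and 886 to 2443 with any 1 array left out (886 without Rptor cKO array 2, 1850 without Rptor cKO array 1), and 867 with the male arrays alone. The 10 other pathway genes became 5 to 10 with any 1 array left out (5 without Rptor cKO array 2) and 6 with the male arrays alone. Without variance moderation 8 genes passed, with 1 member (Nrg1) and 0 pathway genes (limma with moderation called 10, and 7013 of all genes had an unadjusted p under 0.05). Fewer arrays leave fewer degrees of freedom, and otherwise the cause was not tested. The share of changed genes that were lower, 62.1%, was 51.8% with quantile normalization. No paired analysis was made, because the sample labels do not say which embryos shared a litter. Litter is therefore not accounted for in the fits. Values near the negative control median (Nrg1, Epgn, Lum and Pecam1 in wild type, Nrg4, and Ptprc) bound a level and do not measure it.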
